A study of Mus musculus with 2 samples.

Results

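Granule-gene cells are defined here as lung cells in which at least 3 of the 5 genes Fcnb, Mmp8, Abca13, Prtn3 and Cxcr2 had a unique molecular identifier (UMI, a tag that marks 1 captured RNA molecule). In addition, the UMIs of S100a8 and S100a9 together had to reach 20, and Retnlg, Cd3e, Cd79a, Mertk and Ptprb had to have none. The latter genes mark mature neutrophils, T cells, B cells, macrophages and endothelial cells, respectively. Of the 29837 cells of 2 lung libraries with at least 500 gene UMIs, at least 200 genes and at most 20% mitochondrial UMIs, 466 met the rule. The library labelled GFI1 KO held 465 of them, 4.43% of its 10495 cells (4.04 to 4.84, exact Clopper-Pearson 95% interval), and the library labelled WT held 1, 0.00517% of its 19342 cells (0.000131 to 0.0288). With every cell thinned to 3000 UMIs first, 80 of 10018 cells (0.799%) labelled GFI1 KO and 0 of 16887 labelled WT met the rule, so the share moved with depth. The cells were thus chosen by their UMI counts of these 12 genes, with earlier results of the same cells known, so the counts are a description and carry no test.

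The study asked what loss of GFI1, a transcriptional repressor, does to immune cells of barrier tissues. Germline GFI1 KO mice and WT mice, all on a C57BL6/J background and 5 to 8 weeks old, gave live cells that were sorted from digested whole lung without selection of a cell type. RNA and 18 antibody tags on the cell surface were counted per cell with the 10x Genomics 3′ chemistry. Each genotype is represented here by 1 library, labelled as mouse 1, whereas the study's methods speak of 2 samples per genotype. A difference between genotypes, between mice and between libraries can therefore not be told apart. No value has a test, and intervals cover counting error only.

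The library labelled GFI1 KO held 116825535 gene UMIs in 10700 cells and the library labelled WT 162599284 in 19515 cells. After the filters, the median depth per cell was 11076 gene UMIs in the former and 6217 in the latter, so the libraries differed in depth. The targeted gene, Gfi1 (ENSMUSG00000029275), was at 3.60 UMIs per 1000000 (CPM), with an exact Poisson 95% interval of 3.22 to 4.0, where the label says GFI1 KO. Where it says WT, the level was 3.46 CPM (3.16 to 3.79). Its RNA thus does not check the labels, which are used as given. The libraries shared 74 cell barcodes, of which 1 belonged to a granule-gene cell.

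Neutrophils fill their granules in a fixed order during bone marrow development. Primary granule proteases such as neutrophil elastase (Elane) and proteinase 3 (Prtn3) are transcribed early, specific granule proteins such as lactoferrin (Ltf) and cathelicidin (Camp) at a middle stage, and chemokine receptors such as Cxcr2 late. Classical monocytes derive from a progenitor shared with neutrophils, express Vcan, F13a1, Ccr2 and Csf1r, and enter the lung from blood, and GFI1 is known to be required for neutrophil formation.

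The 5 genes of the rule did not separate granule-gene cells sharply from their neighbours. Among the 784 cells labelled GFI1 KO that met every other condition, 6, 62, 251, 281, 134 and 50 cells had UMIs of 0, 1, 2, 3, 4 and 5 of the genes. The most common number was thus the lowest number that the rule admits. The 281 cells just inside had 388 CPM of Prtn3, 1518 CPM of Lcn2 and 1000 CPM of Vcan, and the 251 cells just outside, with 2 of the genes, had 248, 1083 and 818 CPM. Under the WT label, 206 cells met the other conditions, and 22, 137, 46 and 1 of them had 0, 1, 2 and 3 of the genes. The cells labelled WT with 0 to 2 of the genes had median depths of 2478.5 to 3144.5 UMIs, against 11096 to 12860 for the same numbers under the other label, and the part of depth in the numbers of genes was not tested. The threshold on S100a8 and S100a9, the subunits of calprotectin, likewise ran through a continuum. The 88 cells with 20 to 39 UMIs of this pair had 445 CPM of Prtn3 and 918 CPM of Lcn2. The 441 cells that missed only this threshold had 323 CPM of Prtn3, 504 CPM of Lcn2 and 907 CPM of Vcan. The condition on Retnlg left out 11 cells labelled GFI1 KO, and in the library labelled WT it left out 17 of the 18 cells that met every other condition. Before any other condition, 997 of 10495 cells labelled GFI1 KO and 25 of 19342 labelled WT had at least 3 of the 5 genes. The single cell labelled WT had 422 UMIs of the Ly6G tag, 3965 of the CD11b tag and none of Prtn3, Fcnb or Lcn2 RNA, and all levels below are from the 465 cells labelled GFI1 KO.

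**Figure D1:**
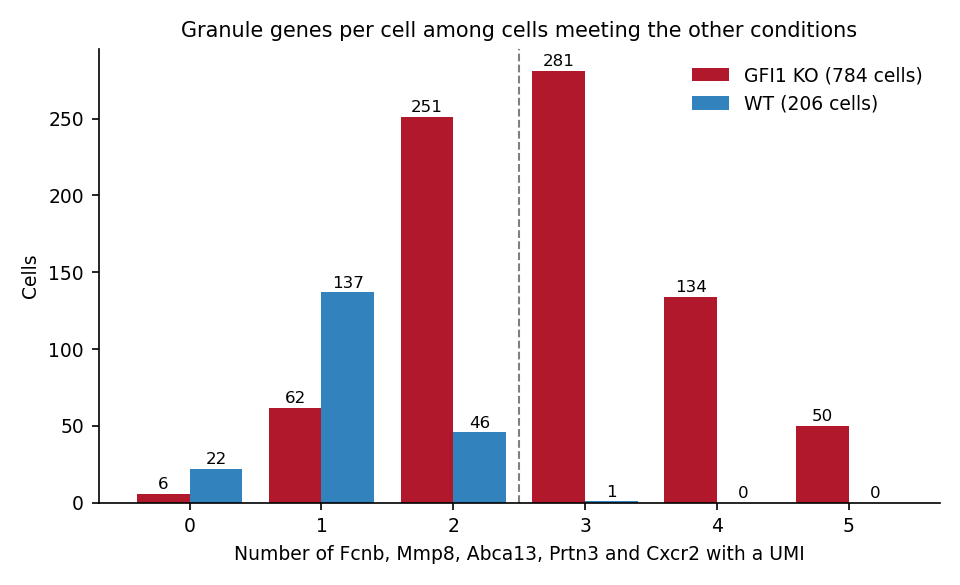
Number of cells (vertical axis) by how many of Fcnb, Mmp8, Abca13, Prtn3 and Cxcr2 had a UMI (horizontal axis), among cells that met every other condition, 784 labelled GFI1 KO and 206 labelled WT. Cells labelled GFI1 KO peaked at 3 genes (281 cells) and those labelled WT, which were shallower, at 1 gene (137 cells).

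Granule-gene cells carried classical monocyte RNA as a rule. Of the 465 cells, 420 had UMIs of both Vcan, a matrix proteoglycan, and F13a1, the A subunit of coagulation factor XIII (90.3%, 87.3 to 92.9). 464 cells had a UMI of Csf1r, the receptor for macrophage colony-stimulating factor, or of the chemokine receptor Ccr2. All 4 monocyte genes were found in 398 cells (85.6%), and none of them in 1 cell. With each cell thinned to 3000 UMIs, Vcan and F13a1 were both found in 59.4% of granule-gene cells and in 47.9% of the monocytes that served as a comparison group. In B cells labelled GFI1 KO, which should lack Vcan, 7.39% of cells had a Vcan UMI at a median depth of 4165 UMIs, against 92.9% of granule-gene cells at a median of 14695.

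Granule and monocyte RNA lay in the same cells. Of the 441 cells with a Prtn3 UMI, 413 had Vcan (93.7%), 428 had F13a1 (97.1%) and 440 had Ccr2. Prtn3 is a gene of the rule, and over all 465 cells the shares were near these, at 92.9%, 96.3% and 99.4%. Of the 127 cells with an Elane UMI, 117 had Vcan, 124 had F13a1 and all had Ccr2. A cell had 0 to 56 UMIs of Vcan (median 10), 0 to 73 of F13a1 (median 11) and 0 to 58 of Ccr2 (median 10). Lcn2, the iron-binding protein lipocalin 2, was not used by the rule and was found in all 465 cells, with 1 to 189 UMIs and a median of 18. The Scrublet caller marked 1 of the 465 cells as a doublet (0.215%), against 346 of all 10495 cells labelled GFI1 KO (3.30%). The rule had already left out cells with a UMI of Cd3e, Cd79a, Mertk or Ptprb, and with them doublets with such cells. The shares are therefore not of like sets of cells, and whether doublets remain was not tested.

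The word immature fits these cells only in part. Of 6 progenitor markers, Flt3 led with 15.9 CPM and Gata2 had no UMI, and all 14 UMIs of Kit lay in 1 cell. The tag for CD117, the protein encoded by Kit, reached 30 UMIs in 1.94% of cells. At least 2 of the cell cycle genes Mki67, Top2a, Cdk1, Birc5 and Ccnb2 were found in 51 cells (11.0%, 8.28 to 14.2), or in 5.38% after thinning. The cells are therefore named here by their granule genes and not by a stage.

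Granule-gene cells carried the CD11b tag and had few UMIs of the tag for Ly6G, a surface protein of mature mouse neutrophils. The CD11b tag, on an integrin of myeloid cells, had 103 to 3209 UMIs per granule-gene cell (median 857), and all 465 cells reached 30. The Ly6G tag had 0 to 39 UMIs (median 1), and 3 of 465 cells reached 30 (0.645%, 0.133 to 1.87). In Retnlg-positive neutrophils labelled WT the Ly6G tag had 0 to 1688 UMIs with a median of 254, and 98.9% of cells reached 30. The range of granule-gene cells thus lay inside that of the neutrophils labelled WT, of which few were below 30. In the 10 Retnlg-positive neutrophils labelled GFI1 KO the Ly6G tag had 1 to 74 UMIs (median 6), and 1 cell reached 30. Of all 10495 cells labelled GFI1 KO, 16 reached 30 (0.152%), against 9.63% of all cells labelled WT. The tag was thus low across the library labelled GFI1 KO, and a low tag does not set granule-gene cells apart from its neutrophils. Monocytes labelled GFI1 KO had 0 to 9 UMIs of it. The CD11c tag reached 30 UMIs in 4.95% of granule-gene cells, and isotype control tags, which bind no target, in 1.29% and 0.215%. The tags for CD335 (4.95%), CD196 (5.59%) and CD127 (8.39%) reached it as often or more often, and others, such as CD4 (0.215%), less often.

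**Figure D2:**
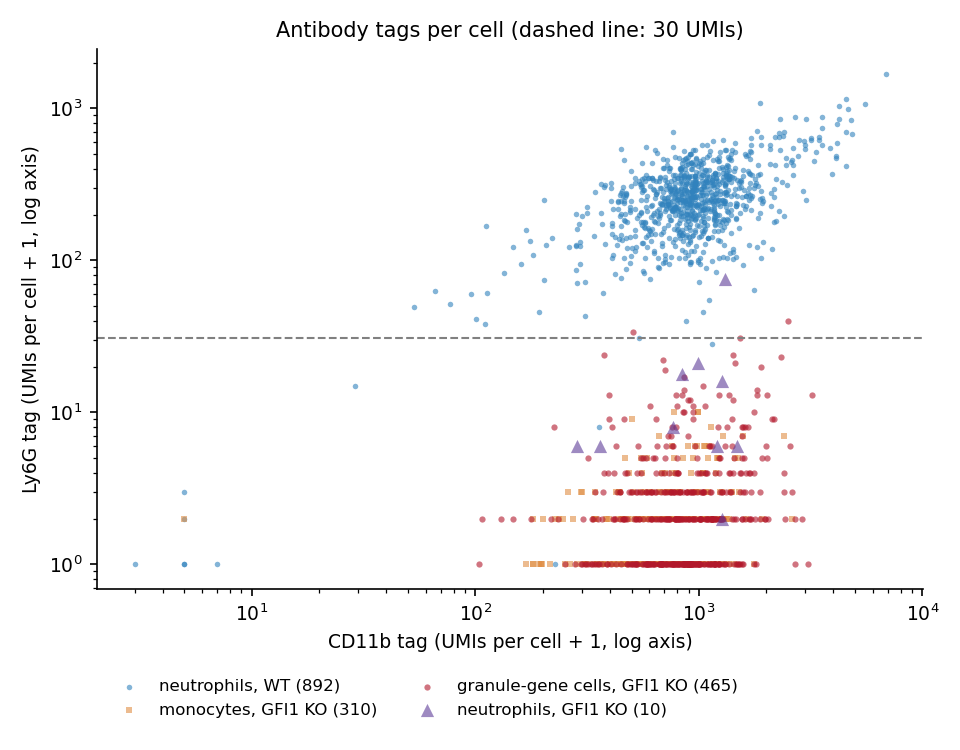
Ly6G tag against CD11b tag (UMIs per cell plus 1, log axes), with 1 point per cell, for granule-gene cells, Retnlg-positive neutrophils and monocytes without Fcnb, Mmp8, Abca13 and Prtn3, and a dashed line at 30 UMIs. Granule-gene cells lie with the monocytes, with Ly6G medians of 1 in each, while the neutrophils labelled WT have a median of 254.

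Granule-gene cells were compared with 2 classes of the same library. The first was neutrophils with at least 3 UMIs of Retnlg that met the condition on S100a8 and S100a9, of which there were 10 labelled GFI1 KO (0.0953% of cells) and 892 labelled WT (4.61%). The second was monocytes with UMIs of Vcan and F13a1 and none of Fcnb, Mmp8, Abca13, Prtn3 and Retnlg, of which there were 310 labelled GFI1 KO (2.95%) and 90 labelled WT (0.465%). Both classes had no UMI of Cd3e, Cd79a, Mertk and Ptprb. The monocytes were not held to the condition on S100a8 and S100a9, and 4 of the 310 labelled GFI1 KO reached 20 UMIs of the pair. The level of a gene is its summed count over the cells of a class per 1000000 UMIs of that class, taken without ribosomal, mitochondrial and Gm- genes. A gene was called past 2-fold where the exact 95% interval of the ratio of 2 such levels lay wholly above 2 or below 0.5, among genes with at least 30 UMIs in both classes together. Genes of the rule were left out of these calls. Median depth was 14695 UMIs in granule-gene cells, 15760.5 and 3218.5 in neutrophils labelled GFI1 KO and WT, and 10097.5 and 8682.5 in monocytes labelled GFI1 KO and WT.

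The 10 neutrophils labelled GFI1 KO were themselves mixed. Their Retnlg counts ran from 4 to 282 UMIs with a median of 57.5. 6 of them had a UMI of Camp, Ngp or Ltf, and the 3 cells with Csf1r had none of these 3 granule genes. A single cell held 121 of their 145 UMIs of Ltf, 152 of 254 of Camp and 379 of 750 of Ngp, and without it these genes were at 188, 798 and 2902 CPM. S100a8 and S100a9 made up 22.2% of their UMIs, against 3.10% in granule-gene cells and 8.22% in neutrophils labelled WT. The 892 neutrophils labelled WT are therefore given beside them, although that comparison also crosses libraries.

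Against the 10 neutrophils labelled GFI1 KO, granule-gene cells had more monocyte RNA and much less specific granule RNA. Of 8956 genes tested, 165 were past 2-fold higher (1.84%) and 109 past 2-fold lower (1.22%). The median ratio over all genes tested was 1.31. With levels taken over all gene UMIs every log2 ratio moved by -0.17, and 112 genes were higher and 128 lower. Against the 892 neutrophils labelled WT, 3125 of 9633 genes were higher (32.4%) and 898 lower (9.32%), with a median ratio of 2.01, and the same change of scale moved every log2 ratio by -0.23. Against the monocytes labelled GFI1 KO, 128 of 9432 genes were higher (1.36%) and 140 lower (1.48%), with a median ratio of 0.998. Against the monocytes labelled WT, 140 of 9103 were higher (1.54%) and 211 lower (2.32%).

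Elane was found in granule-gene cells and in no comparison class, though also in cells just outside the rule. The other primary granule genes differed by class. Prtn3, a gene of the rule, had 2344 UMIs in granule-gene cells (396 CPM), with 0 to 107 per cell and a median of 3. It was at 111 CPM in neutrophils labelled GFI1 KO and 2.73 CPM in those labelled WT, and, by the choice of the monocytes, at 0 in these. Elane, the neighbouring protease gene, was not used by the rule. It had 364 UMIs in 127 of 465 granule-gene cells (27.3%, 61.4 CPM) and none in monocytes or in neutrophils of either label. At a floor of 3 UMIs over the class, this was 48.8-fold higher than in monocytes labelled GFI1 KO, where the exact interval began at 39.5. At the same floor it was 2.94-fold higher than in the 10 neutrophils labelled GFI1 KO, where 3 UMIs are 20.9 CPM. No cell of the library labelled WT had an Elane UMI, and granule-gene cells held 35.4% of the Elane UMIs of the library labelled GFI1 KO. The 251 cells with 2 of the 5 genes had 28.1 CPM of Elane, against 58.1 CPM in the 281 cells with 3. The 441 cells that missed only the threshold on S100a8 and S100a9 had 29.2 CPM. In B cells labelled GFI1 KO, 0.0999% had an Elane UMI and 4.0% a Prtn3 UMI.

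Other primary granule genes were sparse. Mpo, which encodes myeloperoxidase, had 77 UMIs in 29 cells (13 CPM), and Ctsg, the protease cathepsin G, 84 UMIs (14.2 CPM). A single granule-gene cell held 59 of the 84 Ctsg UMIs, 31 of the 77 Mpo UMIs, 41 Elane UMIs and 107 Prtn3 UMIs, and without it Ctsg was at 4.24 CPM and Mpo at 7.80 CPM. Ctsc, which encodes the enzyme that activates these proteases, was at 1090 CPM in granule-gene cells, 285 CPM and 47.3 CPM in neutrophils labelled GFI1 KO and WT, and 985 CPM in monocytes labelled GFI1 KO. Its level was thus near that of monocytes, at a ratio of 1.11 (1.05 to 1.16). Of 6 genes of the primary granule list that could be tested against monocytes, 4 were past 2-fold higher (Elane, Mpo, Ctsg and Ms4a3) and none lower, where 1.36% of all genes tested were higher. In monocytes 3 of the 6 had no UMI. They met the minimum of 30 UMIs through granule-gene cells alone, so they could not come out lower. The Ctsg call rested largely on the single cell with 59 of its 84 UMIs. Against neutrophils labelled GFI1 KO, 2 of 6 were higher, Elane and Ctsc, and Serpinb1a, an inhibitor of these proteases, was lower at 58.6 against 223 CPM. The median ratio over the list was 0.651, with the 4 genes that had no neutrophil UMI set to 3 UMIs there. That floor sets the median, which therefore does not show lower primary granule RNA. Against neutrophils labelled WT, 6 of 7 were higher, Serpinb1a among them, where 32.4% of all genes tested were. Elane, Mpo, Ctsg and Ms4a3 had no UMI in either neutrophil class, so they could not come out lower there either.

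Prtn3 and Elane lie 6645 bases apart on chromosome 10, start to start, in the order that RefSeq gives for the build GRCm38.p6. Both were found in granule-gene cells, so the 250 bases before each start are shown from RefSeq. The build of the deposited counts is GRCm39, for which no coordinates were used. Capitals mark AGGAAGT, a run of 7 letters that holds the GGAA core bound by ETS factors such as PU.1, a regulator of myeloid genes, and that was chosen after the sequences had been seen. Prtn3 is shown at chr10:79879417-79879666 (plus strand) and Elane at chr10:79886062-79886311 (plus strand).
Prtn3: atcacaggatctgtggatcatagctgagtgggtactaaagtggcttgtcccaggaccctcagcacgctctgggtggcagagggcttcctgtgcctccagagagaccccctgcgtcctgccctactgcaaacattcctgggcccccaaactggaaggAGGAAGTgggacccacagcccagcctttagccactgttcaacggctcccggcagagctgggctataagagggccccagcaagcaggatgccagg
Elane: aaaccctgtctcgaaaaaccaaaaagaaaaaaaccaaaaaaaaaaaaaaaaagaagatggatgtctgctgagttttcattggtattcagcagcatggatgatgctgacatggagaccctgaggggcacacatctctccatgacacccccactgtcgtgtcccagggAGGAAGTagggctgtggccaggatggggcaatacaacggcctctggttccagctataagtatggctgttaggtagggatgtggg
The run begins 94 bases before the start of Prtn3 and 84 bases before that of Elane. On either strand it was found in the same window of 7 of the 12 granule genes looked at, Prtn3, Elane, Ctsg, Mpo, Fcnb, Mmp8 and Abca13, and not in Lcn2, Ms4a3, Camp, Ngp or Ltf. Among all 27025 promoters of the RefSeq table, 2109 held it (7.80%). AATC, the core letters of GFI1 binding sites, was absent from both printed windows on either strand and present in 69.8% of all promoters and in 7 of the 12. These matches describe letters, not binding.

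Specific granule genes split into members that were present and members that were nearly absent. Lcn2 was at 1976 CPM in granule-gene cells, 9784 CPM in neutrophils labelled GFI1 KO, 706 CPM in neutrophils labelled WT and 106 CPM in monocytes labelled GFI1 KO. It was 18.7 times the monocyte level (16.5 to 21.3) and 0.202 times that of neutrophils labelled GFI1 KO (0.191 to 0.214). Against neutrophils labelled WT the direction turned, at 2.80 times (2.68 to 2.93). Lcn2 was found in 108 of 310 monocytes (34.8%) and in 5.29% of B cells labelled GFI1 KO. The monocytes were not held to the condition on S100a8 and S100a9.

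Camp had no UMI in 465 granule-gene cells, which allows a level of up to 0.506 CPM at 3 UMIs, and was at 1766 CPM in neutrophils labelled GFI1 KO and 30.04 CPM in those labelled WT. Ltf was at 1.35, 1008 and 22.8 CPM in the same order. Ngp, the neutrophilic granule protein, had 40 UMIs that all lay in 1 granule-gene cell. That cell had 14170 UMIs in all, 2003 of S100a8 and 2538 of S100a9, and none of Vcan, F13a1, Csf1r or Ccr2. At least 1 of Camp, Ngp and Ltf was found in 9 of 465 cells (1.94%, 0.889 to 3.64), against 6 of the 10 neutrophils labelled GFI1 KO and 34 of the 892 labelled WT (3.81%, 2.65 to 5.29). The 10 neutrophils labelled GFI1 KO held 95.5% of the Camp UMIs and 93.6% of the Ngp UMIs of their library, though they were 0.0953% of its cells. Of 9 specific granule genes tested against them, 5 were past 2-fold lower (Ltf, Lcn2, Camp, Ngp and Cd177) and none higher, where 1.22% of all genes tested were lower. Against neutrophils labelled WT the list was split, with 3 of 9 lower (Ltf, Camp and Ngp), 5 higher (Lcn2, Cd177, Chil3, Anxa1 and Lyz2) and a median ratio of 2.51, where 9.32% of all genes tested were lower and 32.4% higher. Against monocytes 2 of 7 were higher, Lcn2 and, through that single cell, Ngp, where 1.36% of all genes tested were. Chil3, a chitinase-like protein of myeloid cells that is on the same list, was among the 15 genes with most UMIs in granule-gene cells, at 4549 CPM, and was at 3317 CPM in neutrophils labelled GFI1 KO and 3300 CPM in monocytes.

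**Figure D3:**
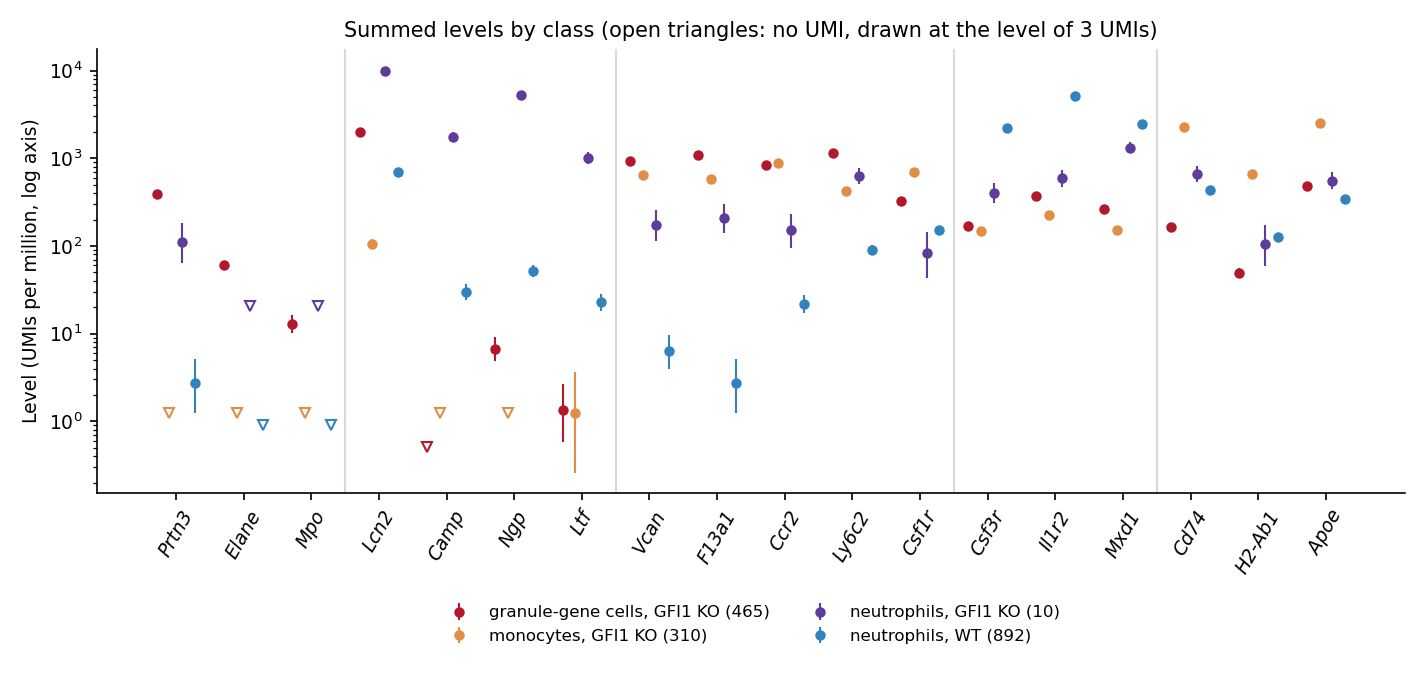
Summed level (UMIs per 1000000, log axis) of granule, neutrophil, monocyte and MHC class II genes in each class, with exact Poisson 95% intervals and open triangles at the level of 3 UMIs where a class had none. Granule-gene cells have Elane, of which the other classes shown had no UMI, keep monocyte levels of Ccr2 and lack Camp. Cells just outside the rule, which are in none of these classes, also had Elane.

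Many genes of late and mature neutrophils were lower in granule-gene cells than in neutrophils. Against neutrophils labelled WT, all 12 tested genes of the mature neutrophil list were past 2-fold lower, with a median ratio of 0.0913, where 9.32% of all genes tested were lower. Csf3r, the receptor for granulocyte colony-stimulating factor, was at 171 CPM, against 403 CPM and 2219 CPM in neutrophils labelled GFI1 KO and WT, and 150 CPM in monocytes. G0s2, a lipolysis inhibitor abundant in neutrophils, was at 390 CPM, against 3268, 5911 and 106 CPM. Mmp9, a gelatinase granule protease, had 24 UMIs in granule-gene cells (4.05 CPM), against 918 CPM and 885 CPM in the neutrophil classes, and with Fpr1 and Mmp25 it made 3 of 9 gelatinase granule genes past 2-fold lower than in neutrophils labelled GFI1 KO. In the WT comparison 4 of these 9 were lower (Mmp9, Fpr1, Mmp25 and Adam8) and 1 higher (Cybb). Of all genes tested in it, 9.32% were lower and 32.4% higher. Against neutrophils labelled GFI1 KO, 5 of 11 mature neutrophil genes were lower (Mxd1, Stfa2l1, G0s2, Hdc and Cxcl2), where 1.22% of all genes tested were. Against monocytes none was lower and 2 of 10 were higher, G0s2 at 3.67 times (3.22 to 4.19) and Slpi, a protease inhibitor, at 2.84 times (2.63 to 3.06), where 1.48% of all genes tested were lower and 1.36% higher. Cxcr2, a gene of the rule, was at 64.5 CPM in granule-gene cells, and 188 of them had a UMI of it.

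Most classical monocyte genes were higher than in either neutrophil class, and most were not past 2-fold from the monocyte level. Against neutrophils labelled GFI1 KO, 6 of 11 were past 2-fold higher and none lower, and against neutrophils labelled WT, 9 of 11 were higher. Of all genes tested, 1.84% and 32.4% were higher in these comparisons. Vcan was at 942 CPM in granule-gene cells, 174 and 6.37 CPM in neutrophils labelled GFI1 KO and WT, and 638 CPM in monocytes labelled GFI1 KO. F13a1 was at 1083, 209, 2.73 and 573 CPM in the same order. Vcan and F13a1 were used to choose the monocytes but not the granule-gene cells. Ccr2, at 840 CPM against 873 CPM in monocytes, had a ratio of 0.962 (0.914 to 1.01). Against monocytes 1 of the 11 genes was past 2-fold higher, Ly6c2, a surface marker of inflammatory monocytes with near-identical paralogs, at 1149 against 425 CPM (2.70 times, 2.53 to 2.89). The monocytes labelled WT had 1429 CPM of Ly6c2, so the direction turned there. Csf1r, at 323 against 703 CPM (0.460 times, 0.430 to 0.491), and the transcription factor Klf4, at 138 against 320 CPM (0.432 times), were past 2-fold lower. Of all genes tested against these monocytes, 1.36% were higher and 1.48% lower.

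Antigen presentation and macrophage genes were lower in granule-gene cells than in monocytes. All 5 MHC class II genes were past 2-fold lower, where 1.48% of all genes tested were. H2-Ab1 was at 49.8 CPM against 658 CPM, and Cd74, the invariant chain, at 163 against 2276 CPM. A single granule-gene cell of 45963 UMIs, with 14 UMIs of Kit, 37 of Mki67 and 1604 of the CD11c tag, held 200 of the 295 H2-Ab1 UMIs and 477 of the 964 Cd74 UMIs. Without it H2-Ab1 was at 16.1 CPM and Cd74 at 82.7 CPM. The monocyte class was not uniform either, since 192 of its 310 cells had no H2-Ab1 UMI, and 44 of the 465 granule-gene cells had one. Apoe, a lipid carrier of macrophages, was at 489 CPM against 2531 CPM, and Cx3cr1, the fractalkine receptor, at 54.5 against 224 CPM. Of 8 nonclassical monocyte genes, 3 were past 2-fold lower, Cx3cr1, Treml4 and Ace, and none higher.

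The 10 genes with the highest ratio to monocytes, ranked by the interval bound nearer 1, were Elane, Pclaf, Lcn2, Birc5, Top2a, Ccnb2, Wfdc21, Tpx2, Prok2 and Nusap1. Elane, Tpx2 and Prok2 had no UMI in monocytes, so they could not come out lower. Of the 10 genes, Pclaf, Birc5, Top2a and Ccnb2 are on the fixed list of 17 cell cycle genes. Tpx2 and Nusap1, also genes of mitosis, are not on it, and no theme was tested. Wfdc21, a secreted protein of the whey acidic protein family, was at 1534 against 133 CPM (11.5 times, 10.3 to 12.9). Prok2, a secreted ligand of prokineticin receptors, had 90 UMIs against 0. It was 12.1-fold higher at a floor of 3 UMIs, with an exact interval that began at 9.61. The 10 genes with the lowest ratio were Dcn, Sparc, Col1a1, Col1a2, Col3a1, Plac9, Sparcl1, Mfap5, Rbms3 and Mgp, most of them matrix genes of fibroblasts. A single cell of the monocyte class held all 122 Dcn UMIs, 91 of Col1a1, 103 of Col3a1 and 162 of Sparc, and had 4 UMIs of the CD11b tag. Without the 2 monocytes that had a UMI of Col1a1, Col3a1 or Dcn, a choice made after seeing the data, the 10 lowest were H2-Aa, Cd74, C1qb, H2-Ab1, Spon1, Slamf8, Tmem37, H2-Eb1, Pltp and Ace, and the 10 highest were as before. C1qb, a complement component of macrophages, then had 4 UMIs in granule-gene cells against 55 in 308 monocytes.

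The 10 genes highest against neutrophils labelled GFI1 KO were Tppp3, S100a10, S100a4, Ptma, Apba1, Mef2c, Gpatch8, Stmn1, Vcan and Sarnp. S100a10, a partner of annexin A2, was at 1184 against 160 CPM (7.40 times, 4.93 to 11.7), and S100a4, a calcium-binding protein, at 2206 against 403 CPM (5.47 times, 4.23 to 7.21). Tppp3, a microtubule-associated protein, had 1138 UMIs against 1, with a ratio of 27.6 (4.95 to 1092). The 10 lowest were Camp, Cstdc5, Cstdc4, Stfa2, Ngp, Stfa2l1, Stfa3, Ltf, Mrgpra2b and Ceacam10. Camp and Cstdc5 had no UMI in granule-gene cells, so they could not come out higher. The stefin A genes Cstdc4, Cstdc5, Stfa2, Stfa2l1 and Stfa3 encode cysteine protease inhibitors and are near-identical copies, so the split of UMIs between them is uncertain. Against neutrophils labelled WT the 10 highest were F13a1, Saa3, Vcan, Elane, Ly6a2, Ube2c, Chil3, Ccl2, Ms4a6d and Trem2, and the 10 lowest Acod1, Cstdc4, Asprv1, Stfa2l1, Chil1, Mmp9, Adam19, Slc2a3, 4732465J04Rik and Dcn. Saa3 and Lrg1, acute-phase genes, were at 594 and 740 CPM in granule-gene cells, 607 and 537 CPM in monocytes labelled GFI1 KO, and 1.54 and 3.08 CPM in monocytes labelled WT. Both were thus within 2-fold between granule-gene cells and monocytes of the same library, and low in monocytes labelled WT.

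Myeloid transcription factors were compared with the classes of the same library. Of the 25 listed, none was past 2-fold against neutrophils labelled GFI1 KO (19 tested), and 2 of 20 were lower against monocytes, Klf4 and Id3 (38.5 against 208 CPM). Of all genes tested, 1.84% were higher and 1.22% lower against the neutrophils and 1.48% lower against monocytes. Spi1, which encodes PU.1, was at 778 CPM, against 876 CPM in those neutrophils and 851 CPM in monocytes. Cebpe, a factor of the specific granule stage, was at 32.6 CPM, against 55.6 and 13.4 CPM, a ratio of 2.43 (1.66 to 3.65) to monocytes. Irf8, which favours monocytes, was at 111 CPM, against 27.8 and 202 CPM. The intervals of Cebpe and Irf8 against the 10 neutrophils ran from 0.291 to 1.38 and from 1.55 to 14.7, so neither was called past 2-fold. Gfi1 itself had 8 UMIs in 8 granule-gene cells (1.72%, 1.35 CPM) and 3 UMIs in monocytes (1.26 CPM). Across libraries, 3 of 20 listed factors were past 2-fold higher and 5 lower than in neutrophils labelled WT. Of all genes tested there, 32.4% were higher and 9.32% lower.

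Receptors and effectors completed the picture. Of 7 growth factor receptors tested against monocytes, Csf1r alone was past 2-fold, where 1.48% of all genes tested were lower, and Csf2rb, the shared beta chain of cytokine receptors, was at 335 against 321 CPM. The chemokine receptor Ccr1 was past 2-fold higher than in monocytes, at 312 against 125 CPM. None of the 6 NADPH oxidase genes was past 2-fold against monocytes or against neutrophils labelled GFI1 KO, with Cybb, its membrane subunit, at 1237 against 1303 and 994 CPM. Among 10 acute-phase and inflammation genes, none was past 2-fold against monocytes and 4 were lower against neutrophils labelled GFI1 KO (Il1b, Tnf, Cxcl3 and Cd274), where 1.22% of all genes tested were. In the comparison with neutrophils labelled WT, 4 of the 10 were lower (Il1b, Ptgs2, Nlrp3 and Cd274) and 3 higher (Saa3, Lrg1 and Ccl2). Of all genes tested in it, 9.32% were lower and 32.4% higher, so the higher count is near that share. Il1b was at 2164 CPM, against 4902 CPM and 14608 CPM in neutrophils labelled GFI1 KO and WT and 4280 CPM in monocytes labelled GFI1 KO. None of 6 tested interferon response genes was past 2-fold against monocytes labelled GFI1 KO, and 1 of 6, Ifitm6, was lower against neutrophils labelled GFI1 KO. Of 8 tested against monocytes labelled WT, 6 were lower and none higher, where 2.32% of all genes tested were lower. There the median ratio was 0.164, and Isg15, a ubiquitin-like protein induced by interferon, was at 74.6 against 271 CPM. Of 8 tested against neutrophils labelled WT, 5 were lower (Ifit1, Ifit2, Ifit3, Isg15 and Rsad2) and 2 higher (Ifitm3 and Ifitm6), where 9.32% and 32.4% of all genes tested were.

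Markers of lymphoid, erythroid and structural cell types were low. Fibroblast markers summed to 0.169 CPM, T cell markers to 2.19 CPM, B cell markers to 5.23 CPM, erythroid markers to 0.844 CPM and epithelial markers to 17.0 CPM, of which Scgb1a1 made 15.5. Basophil or mast cell and eosinophil markers had no UMI. Dendritic cell markers summed to 19.4 CPM, with Xcr1 and Clec9a at 0, and interstitial macrophage markers to 495 CPM, nearly all of it Apoe, with C1qa at 0. The choice of the cells set Cd3e, Cd79a and Mertk, which are in the T cell, B cell and interstitial macrophage sums, to 0. The 8 mature neutrophil markers summed to 1195 CPM, led by Il1r2, against 814 CPM in monocytes labelled GFI1 KO and 11084 CPM and 18882 CPM in neutrophils labelled GFI1 KO and WT. Of the latter sums Retnlg, which the choice of cells set to 0 in granule-gene cells and to at least 3 UMIs in neutrophils, made 6668 CPM and 5355 CPM, and the list also holds Cxcr2, a gene of the rule. Nonclassical monocyte markers summed to 1181 CPM, led by Nr4a1 at 687 CPM, against 1716 CPM in monocytes labelled GFI1 KO.

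Many cell cycle genes were higher than in the comparison classes. Of 17 tested, 13 were past 2-fold higher against monocytes labelled GFI1 KO and 14 against neutrophils labelled WT. Against the 10 neutrophils labelled GFI1 KO, 4 were higher. None was lower, but 2, 1 and 15 of the 17, in the same order, had no UMI in the comparison class. Such genes met the minimum count through granule-gene cells alone, so they could not come out lower. Of all genes tested, 1.36%, 32.4% and 1.84% were higher in the same order. Mki67 was at 70.4 CPM, against 5.88 CPM in monocytes labelled GFI1 KO and 4.55 CPM in neutrophils labelled WT, and Top2a, the topoisomerase of dividing cells, at 71.4, 2.94 and 3.03 CPM. Pclaf, a PCNA-binding factor, had 414 UMIs against 1 in monocytes. At least 2 of the 5 cycle genes were found in 51 of 465 granule-gene cells, in 0 of 310 monocytes, which allows up to 1.18% by the exact interval, and in 0 of the 10 neutrophils. After thinning to 3000 UMIs, the granule-gene cells still gave 5.38% and the monocytes 0 of 292.

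Primary granule RNA was highest in the granule-gene cells with cycle genes. Elane was at 211 CPM in the 51 cells with cycle genes and 37.3 CPM in the other 414 (5.66 times, 4.58 to 6.98), and Prtn3 at 767 against 335 CPM (2.28 times, 2.08 to 2.5). Mpo was at 64.2 against 4.71 CPM and Ctsg at 90.8 against 1.76 CPM. Apoe ran the other way, at 0.421 times (0.361 to 0.489) the level of the other cells. Among monocyte genes, Csf1r, Ccr2 and Vcan were lower, at 0.712, 0.722 and 0.794 times. F13a1 and Ly6c2 were higher, at 1.10 and 1.32 times. Median depth was 18882 UMIs with cycle genes and 14476 without, and depth was not matched in these ratios. Without the 3 cells that held most of the Ngp, Ctsg or H2-Ab1 UMIs, left out after seeing the data, the ratios were 4.69 for Elane (3.73 to 5.88), 2.01 for Prtn3, 6.14 for Mpo and 11.9 for Ctsg. Cd74, which was 7.0 times higher with cycle genes, was then at 0.504 times, so its direction rested on a single cell. Elane and cycle genes were found together in 27 cells.

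**Figure D4:**
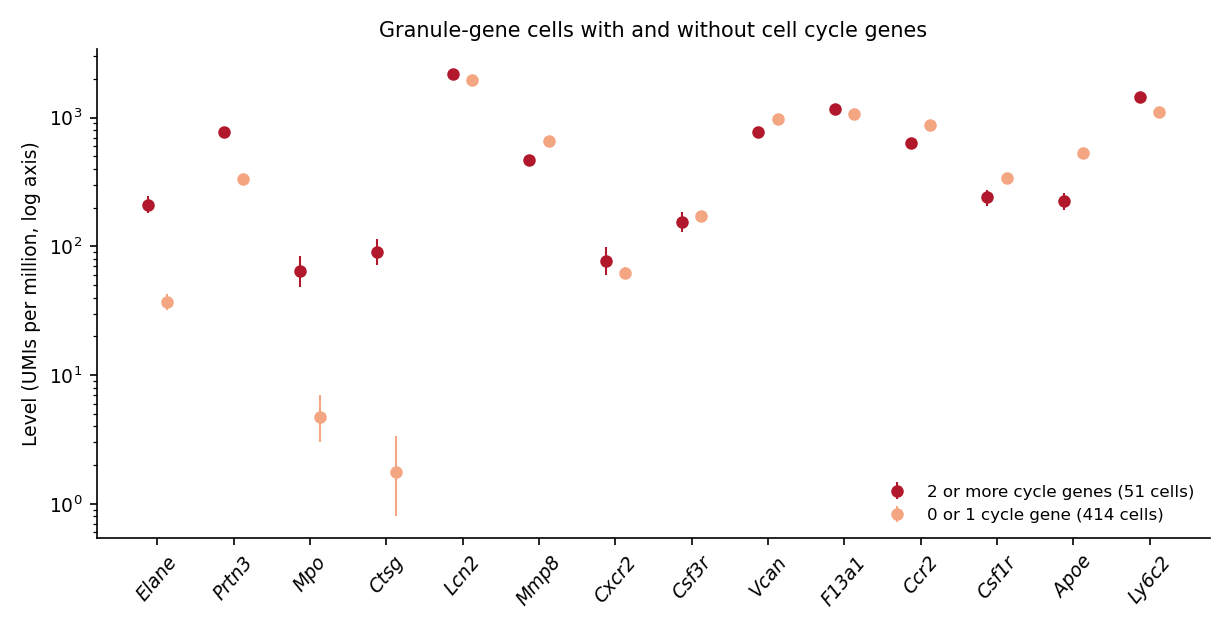
Summed level (UMIs per 1000000, log axis) of granule, monocyte and macrophage genes in the 51 granule-gene cells with at least 2 cell cycle genes and in the 414 others, with exact Poisson 95% intervals. Elane (211 against 37.3) and Prtn3 (767 against 335) are higher with cycle genes and Apoe is lower.

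Levels also differed between granule-gene cells with and without Cxcr2, a gene of the rule, so that this split follows part of the choice of the cells. In the 188 cells with a Cxcr2 UMI, Elane was at 0.277 times (0.206 to 0.368) and Mpo at 0.102 times the level of the 277 cells without, while Lcn2 was at 1.62 times (1.57 to 1.68), G0s2 at 1.87 times and S100a9 at 3.36 times. Vcan was at 0.730 times. A single cell held 31 of the 77 Mpo UMIs of all granule-gene cells and was not left out of these ratios. The 127 cells with Elane had 2.32 times the Prtn3 level of the other cells, 1.76 times the Ly6c2 level, 3.75 times the Pclaf level, 0.541 times the Apoe level and 0.50 times the Cxcr2 level. Vcan, at 1.02 times (0.961 to 1.08), was within the counting error between them. Cells without Cxcr2 had to have at least 3 of the other 4 genes of the rule, Prtn3 among them.

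Among all cells with Vcan and F13a1 that met the other conditions, Lcn2, Csf1r and Apoe moved in steps. The steps ran from 1 to 5 of the 5 genes of the rule. With 1, 2, 3, 4 and 5 of the 5 genes there were 43, 213, 255, 120 and 45 cells, and Lcn2 was at 966, 1064, 1489, 2181 and 3434 CPM. Csf1r was at 460, 432, 353, 309 and 222 CPM, and Apoe at 796, 764, 526, 447 and 302 CPM. Lcn2 thus went up and the other 2 genes went down at each step, although from 1 to 2 genes the intervals overlapped for all 3. Vcan (1006, 910, 1069, 906 and 992 CPM) and F13a1 (1015, 1227, 1148, 1124 and 1208 CPM) followed no order from 1 to 5 genes. The 4 such cells with none of the genes had 639 CPM of Lcn2, 723 CPM of Csf1r, 2001 CPM of Apoe, 361 CPM of Vcan (192 to 618) and 639 CPM of F13a1 (405 to 959), so that Vcan was lower there than in the others. The share of cells with at least 2 cycle genes was 4.65%, 6.57%, 7.84%, 13.3% and 24.4%. Median depth also went up, from 11586 to 16805 UMIs, and its part in these differences was not tested. The cells with 1 or 2 of the genes are not granule-gene cells by the rule.

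**Figure D5:**
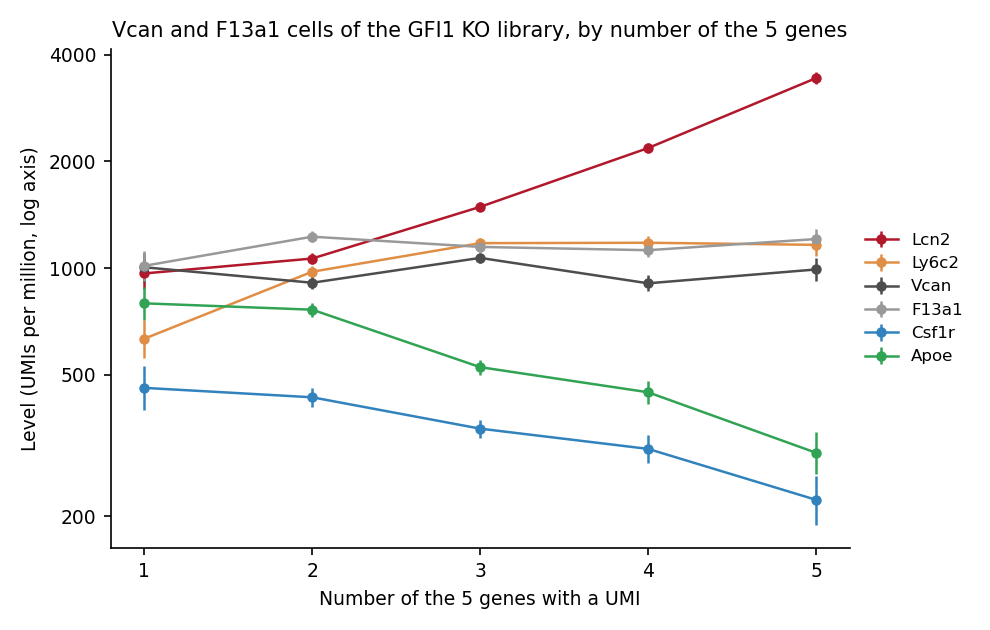
Summed level (UMIs per 1000000, log axis) by how many of the 5 genes of the rule had a UMI (1 to 5, horizontal axis). Cells are labelled GFI1 KO, have Vcan and F13a1 and met the other conditions, with exact Poisson 95% intervals. Lcn2 goes from 966 to 3434 CPM and Csf1r from 460 to 222 CPM, while Vcan stays between 906 and 1069 CPM, and the 4 cells with none of the genes are not plotted.

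Granule RNA was not limited to the cells that met the rule. Granule-gene cells were 4.43% of the library labelled GFI1 KO and held 61.4% of its S100a8 UMIs, 46.2% of its Fcnb UMIs, 41.1% of its Lcn2 UMIs, 22.1% of its Prtn3 UMIs and 15.7% of its Vcan UMIs. Prtn3 was found in 31.1% and Mmp8 in 41.1% of all cells labelled GFI1 KO. In B cells, which should lack them, the shares were 4.0% and 5.19%, at a median depth of 4165 UMIs. The 45 granule-gene cells without both Vcan and F13a1 had 0.456 times the Ccr2 level and 2.44 times the Cxcr2 level of the other 420, and Csf1r at 0.988 times (0.834 to 1.16), within the counting error.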

How the data were processed

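Live cells of 1 lung library per genotype were measured with the 10x Genomics 3′ v3.1 kit. The authors deposited raw UMI counts, not normalized, for the genes and the antibody tags, and the submitters' processing notes name Cell Ranger 9.0.1 and the build GRCm39. The features held 33696 genes and 18 tags. Kept were cells with at least 500 gene UMIs, 200 genes and at most 20% mitochondrial UMIs (205 labelled GFI1 KO and 173 labelled WT failed). Levels (CPM) were computed over the UMIs without ribosomal, mitochondrial and Gm- genes, 9533 genes with 18.9% and 16.4% of the UMIs.

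The members, gene lists and comparisons were chosen with earlier results of these data known. The genes named were those of the rule, of fixed lists, the 10 with the highest and 10 with the lowest ratio to the neutrophils and to the monocytes labelled GFI1 KO (and, after seeing the data, to neutrophils labelled WT) and the 15 with most UMIs in granule-gene cells, which were Tmsb4x, Lyz2, S100a8, S100a9, Actb, Malat1, Tpt1, Fau, Actg1, Fth1, Ftl1, Eef1a1, S100a6, Chil3 and Tyrobp. Shares have exact Clopper-Pearson, levels exact Poisson and ratios exact conditional binomial 95% intervals. With 1 library per genotype no test was run. A count of 0 was set to 3 UMIs for fold values at a floor and for median ratios. For thinning, 3000 UMIs were drawn from each cell that had as many (seed 20). The calls were tested on simulated Poisson counts of whole classes. These had no spread between cells, so genes whose UMIs lie mostly in 1 cell were not covered. Doublets were kept, and their removal with Scrublet was an alternative. Python 3.11.15, numpy 2.4.6, scipy 1.17.1, pandas 2.3.3, scanpy 1.11.5 and matplotlib 3.10.9 were used. Some genes of the lists are not reported here, and the other libraries of the study were not analysed here.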

Additional observations from a re-analysis of the deposited data

How the results depend on the processing

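No paired analysis was possible because each genotype has 1 library, and leaving out a replicate was not possible for the same reason. Without a test, a setting is set against the reported value by its counting interval, or by 1.5 times for counts of genes. The share of granule-gene cells under the GFI1 KO label was 0.799% with cells thinned to 3000 UMIs before the rule (80 of 10018 cells), 1.75% with at least 4 of the 5 genes, 3.86% with at least 3 of the 4 genes other than Cxcr2 and 2.74% with at least 100 UMIs of S100a8 and S100a9. Under the WT label it was 0% in the first 3 of these settings and 0.0310% (6 cells) with up to 2 Retnlg UMIs. Thinned before the rule, 62.5% of granule-gene cells had Vcan and F13a1 and 6.25% had cycle genes. With at least 4 of the 5 genes, 15.8% had cycle genes and 3.8% a late granule gene, and with at least 100 UMIs of the S100 pair 14.9% had cycle genes.

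Against neutrophils, 25 genes were higher and 23 lower after thinning, 260 were higher with every cell weighted equally, 49 with 14 neutrophils of at least 1 Retnlg UMI, 300 with the 7 neutrophils without Csf1r (a choice made after seeing the data), and 3125 were higher and 898 lower against neutrophils labelled WT. Of the 165 genes higher in the reported comparison, 139 were also higher against neutrophils labelled WT. Of the 109 lower genes, 77 were also lower there. Both comparisons use the same granule-gene cells. Of all genes tested against neutrophils labelled WT, 32.4% were higher and 9.32% lower. With the 14 neutrophils, 31 of the 165 and 85 of the 109 were called again. Of the 128 genes higher and 140 lower than in monocytes, 67 and 77 were called again against monocytes labelled WT. Against monocytes, 15 genes were higher and 30 lower after thinning, 273 were lower with a minimum of 5 UMIs per gene, 527 against the 695 cells with Vcan or F13a1, and 211 against monocytes labelled WT. Against the 192 monocytes without H2-Ab1, chosen after seeing the data, 85 were higher and 47 lower. Fewer UMIs per gene widen every interval after thinning, and for the other settings the cause was not tested. Of 147 log2 ratios against neutrophils, for 10 genes over all settings, 146 kept their direction, and of 192 against monocytes, for 13 genes, 190 did. The exceptions were Lcn2 against neutrophils labelled WT (1.48), Vcan against monocytes after thinning (-0.12) and Ly6c2 against monocytes labelled WT (-0.31). The Ly6G tag was on 6.24% of granule-gene cells at a limit of 10 UMIs and on 0% at 100, limits chosen after seeing the data. With 10 neutrophils labelled GFI1 KO a count of 0 allows up to 25.7 CPM by the exact interval, and a second library of a genotype would be needed for any spread between mice.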
